A study of Mus musculus with 12 samples.

Results

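The axon guidance ligands and receptors described here are 66 mouse genes of 16293 named in the deposited tables: the semaphorins, plexins, neuropilins, slits, Robo receptors, netrins and their receptors Dcc and Unc5, ephrins and Eph receptors. They were chosen by gene symbol alone, as the gene nearest to a peak of 5-methylcytosine (5mC) or 5-hydroxymethylcytosine (5hmC), and the rule for symbols uses no measured level. Of 55085 5mC peaks 310 were annotated to these genes, and of 47478 5hmC peaks 430 were, which gave 740 peaks in all. A 5mC peak was listed for 62 of the genes and a 5hmC peak for 59, with 55 genes holding both marks. RefSeq names 72 protein-coding genes under the same pattern of symbols, and 6 of them (Efna4, Ephb1, Ntn3, Ntn5, Plxnc1 and Sema3c) had no peak in either table. The pattern also took Unc5cl, a gene named for its likeness to the C-terminal part of the Unc5 receptors, with 8 5mC peaks and 3 5hmC peaks.

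All cells were sorted from the cortex of embryos at E14.5 that carried the reporters Btg2-RFP and Tubb3-GFP together. Proliferative progenitors (PP) were negative for both reporters, differentiative progenitors (DP) carried RFP without GFP, and neurons were all cells with GFP, with or without RFP. Barcodes let the DNA of PP, DP and neurons share a tube for the immunoprecipitation, made with an antibody against 5mC (MeDIP) or 5hmC (hMeDIP), and the series lists 12 samples, 1 IP and 1 input per cell type and mark. The study made independent biological replicates, and the tables hold 1 mean level per cell type over them. Values per replicate are not in the tables, and the authors' own p-values were not used. No difference below therefore has a replicate check and none was tested. The reporters define these populations, and in bulk a change in the share of cells that carry a mark or a transcript cannot be told apart from a change within each cell.

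Guidance cues steer growing axons and migrating neurons by attraction or repulsion at the growth cone. Semaphorins signal through plexins, with neuropilins as co-receptors of the secreted semaphorins. Slits repel through Robo receptors, and netrins attract through Dcc and repel through Unc5 receptors. Ephrins are membrane-bound ligands of the Eph receptor tyrosine kinases and signal in both directions between touching cells. In the cortex these systems act in callosal, corticofugal and thalamocortical wiring and in the radial migration of newborn neurons. 5mC is the main cytosine modification of mammalian DNA, and Tet enzymes oxidise it to 5hmC, which is abundant in the brain and common in gene bodies and distal elements.

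The promoter windows that a peak reached are printed first, since they are the places where sequence and measurement could be read together. RefSeq windows of GRCm38.p6 (the assembly called mm10) span 250 bases before to 50 bases after a start site and were matched by symbol for 56 of the 66 genes. Of the 310 5mC peaks 1 overlapped any such window, against 0.621% of all 5mC peaks, and of the 430 5hmC peaks 3 did, against 0.811% of all 5hmC peaks. Peaks at the starts of genes without a matched window can be missed in these counts. Slit1 had no matched window, and its 5hmC peak annotated 0.101 kb upstream of the start is not counted. The windows of the guidance genes held a median of 19.5 CG dinucleotides in 72 windows, against 7 in all 32851 windows. The letters run 5′ to 3′ on the strand of the gene, and capitals mark the bases shared with the peak. The Ephb2 peak lies on the window of Gm52708, a predicted gene within the span of Ephb2, and is the only peak of these genes that a window holds whole. The other windows belong to Plxnd1 and Sema4a.
Ephb2 5hmC peak, chr4:136803710-136804009 (+): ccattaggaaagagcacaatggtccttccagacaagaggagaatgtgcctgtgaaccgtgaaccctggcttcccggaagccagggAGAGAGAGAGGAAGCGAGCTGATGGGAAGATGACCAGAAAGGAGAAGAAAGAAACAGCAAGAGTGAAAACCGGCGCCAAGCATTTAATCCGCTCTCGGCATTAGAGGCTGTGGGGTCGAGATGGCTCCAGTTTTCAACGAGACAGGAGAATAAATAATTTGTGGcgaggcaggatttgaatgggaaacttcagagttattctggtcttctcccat
Plxnd1 5hmC peak, chr6:115994956-115995255 (-): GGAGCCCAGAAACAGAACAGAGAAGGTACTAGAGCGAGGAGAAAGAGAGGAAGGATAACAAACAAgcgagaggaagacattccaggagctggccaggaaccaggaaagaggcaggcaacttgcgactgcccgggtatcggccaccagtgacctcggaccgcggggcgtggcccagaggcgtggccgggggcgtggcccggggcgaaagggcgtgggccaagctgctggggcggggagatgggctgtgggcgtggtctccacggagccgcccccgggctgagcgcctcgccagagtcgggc
Sema4a 5hmC peak, chr3:88461133-88461432 (-): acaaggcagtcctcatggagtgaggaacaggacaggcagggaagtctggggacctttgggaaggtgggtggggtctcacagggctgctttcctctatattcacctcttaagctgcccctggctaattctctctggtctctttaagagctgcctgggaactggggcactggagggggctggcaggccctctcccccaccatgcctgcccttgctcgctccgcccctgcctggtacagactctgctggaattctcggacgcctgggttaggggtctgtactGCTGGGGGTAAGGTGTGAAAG
Sema4a 5mC peak, chr3:88455712-88456011 (-): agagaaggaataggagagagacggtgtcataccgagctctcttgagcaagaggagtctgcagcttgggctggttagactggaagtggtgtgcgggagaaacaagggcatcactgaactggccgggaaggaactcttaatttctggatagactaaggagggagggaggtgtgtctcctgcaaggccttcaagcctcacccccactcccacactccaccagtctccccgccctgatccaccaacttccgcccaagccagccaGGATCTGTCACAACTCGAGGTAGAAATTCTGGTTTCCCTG
The Ephb2 window shared 164 bases with the peak and held 10 CG dinucleotides, 7 of them in the capitals. In the Plxnd1 window the peak covered 65 bases at the upstream end, with 1 CG of the 23 in the window. The Sema4a windows held 4 and 7 CG and shared 21 and 40 bases with their peaks. None of the 4 windows held CANNTG, the E-box letters that bHLH factors bind, on either strand. CANNTG stood in 51.4% of the guidance gene windows and 72.3% of all windows. All windows belong to 27025 genes, predicted ones among them, and hold fewer CG. Windows were not matched for gene type or CG content, so neither difference can be taken as particular to guidance genes. The 5hmC level of the Ephb2 peak was 5.66, 5.83 and 5.68 in PP, DP and neurons, close to flat. At the Plxnd1 peak 5hmC was 6.30, 5.98 and 5.71 in PP, DP and neurons, highest in PP, and at Sema4a it was 4.52, 4.14 and 3.98, with the same order. The 5mC peak of Sema4a had levels of 4.64, 3.82 and 4.19, lowest in DP.

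A level is log2 of the authors' mean normalized read level of a peak, and a change is the difference between the levels of 2 cell types. The median change of all peaks was subtracted from each change, since in neurons all 5mC peaks lay lower by a median of 0.18 than in DP and 0.17 than in PP. For 5mC from PP to DP, and for 5hmC from PP to DP, DP to neurons and PP to neurons, the medians were -0.0040, -0.0035, -0.023 and -0.081. A gain or a loss is a change of at least 0.58, that is 1.5-fold, after this subtraction. It is a limit of size and carries no error estimate. Several of the largest changes named below start or end at a very low level, where the error is unknown.

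Marker genes of the cell types were read in the expression values of the same tables. These values come from the authors' earlier RNA-seq of the same populations, so they do not check the cells whose marks were measured. Btg2 and Tubb3, on the DP and neuronal lists, are the reporter genes of the sort, so their order follows largely from the gates. All 7 PP markers with a value, such as Sox2 and Pax6, were highest in PP, all 5 DP markers, such as Eomes, in DP, and all 8 neuronal markers, such as Tubb3 and Tbr1, in neurons. The 4 interneuron markers with a value were also highest in neurons, with a summed value of 971, 3616 and 10576 in PP, DP and neurons, among them Gad1 at 32.3, 41.9 and 3055. The 5 endothelial markers summed to 511, 360 and 102, the 3 microglial markers to 327, 203 and 79.7, and the 1 meningeal marker (Col1a1) was 463, 50.6 and 28.2 in PP, DP and neurons. The sums of these 3 lists were highest in PP, with Kdr alone of their markers highest in DP, and no marker with a value was listed at 0. The part of these other cells in the results below was not tested.

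Peaks of the guidance genes lay far from start sites and often within the genes. Of the 5mC peaks 54.5% were annotated inside the gene, against 40.2% of all 5mC peaks, and of the 5hmC peaks 44.2%, against 36.2%. The median distance to the start site was 40.5 kb for 5mC and 63.5 kb for 5hmC, against 20.4 and 27.2 kb for all peaks. More than 100 kb from the start lay 43.3% of the 5hmC peaks, against 17.4% of all. Only 2 5mC peaks (0.645%) and 16 5hmC peaks (3.72%) lay within 2 kb, against 6.14% and 6.63% of all. The annotation of a peak as upstream depends on the gene model: 13 5mC and 21 5hmC peaks annotated upstream of a gene lay within the bounds RefSeq gives it, most of them at Efna5 and Robo1. Median levels of these peaks were 4.99, 4.97 and 4.71 for 5mC and 4.76, 4.70 and 4.77 for 5hmC in PP, DP and neurons, against 5.06, 5.05 and 4.87, and 4.72, 4.71 and 4.75, in all peaks.

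From PP to neurons 112 of 430 5hmC peaks (26.0%) had a gain, in 36 genes, against 22.2% of all 5hmC peaks, and 32 (7.44%) had a loss, against 7.91% of all. For 5mC, 42 of 310 peaks (13.5%) had a loss, in 23 genes, against 10.4% of all 5mC peaks, and 18 (5.81%) had a gain, against 5.15% of all. The exact (Clopper-Pearson) 95% interval was 22.0 to 30.5% for the 5hmC gains and 9.94 to 17.9% for the 5mC losses. The background lay inside each, and the intervals cover counting error only, since peaks of a gene are not independent. The median change of the peaks was 0.0033 for 5hmC and -0.041 for 5mC after the median change of all peaks was subtracted, so the median peak of these genes moved about as the median of all peaks did.

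Most 5mC losses lay between DP and neurons. In that step 43 5mC peaks (13.9%) had a loss, against 9.48% of all, and 8 (2.58%) a gain, against 5.23% of all. From PP to DP 16 (5.16%) had a loss, against 5.56%, and 21 (6.77%) a gain, against 4.72%. The exact interval of the 43 losses was 10.2 to 18.2% and of the 8 gains 1.12 to 5.02%, both without the background value. These intervals again cover counting error only and are no test, since peaks of a gene are not independent. Efna5 and Efnb2 held 5 of the losses each. With each gene counted once by the median of its peaks, the loss was at 3 of 62 genes (4.84%), against 3.25% of all genes. At the 42 peaks with a loss from PP to neurons the median level was 4.98, 4.69 and 3.80 in PP, DP and neurons, and 3 of them had a loss already from PP to DP.

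The 5hmC gains came in both steps. From PP to DP 41 5hmC peaks (9.53%) had a gain, against 11.3% of all, and 17 (3.95%) a loss, against 4.77%. From DP to neurons 78 (18.1%) had a gain, against 16.6%, and 30 (6.98%) a loss, against 7.22%. At the 112 peaks with a gain from PP to neurons the median level was 3.93, 4.33 and 4.93 in PP, DP and neurons. Of these, 37 passed the limit from PP to DP, 67 from DP to neurons, 17 in both steps and 25 in neither alone.

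**Figure D1:**
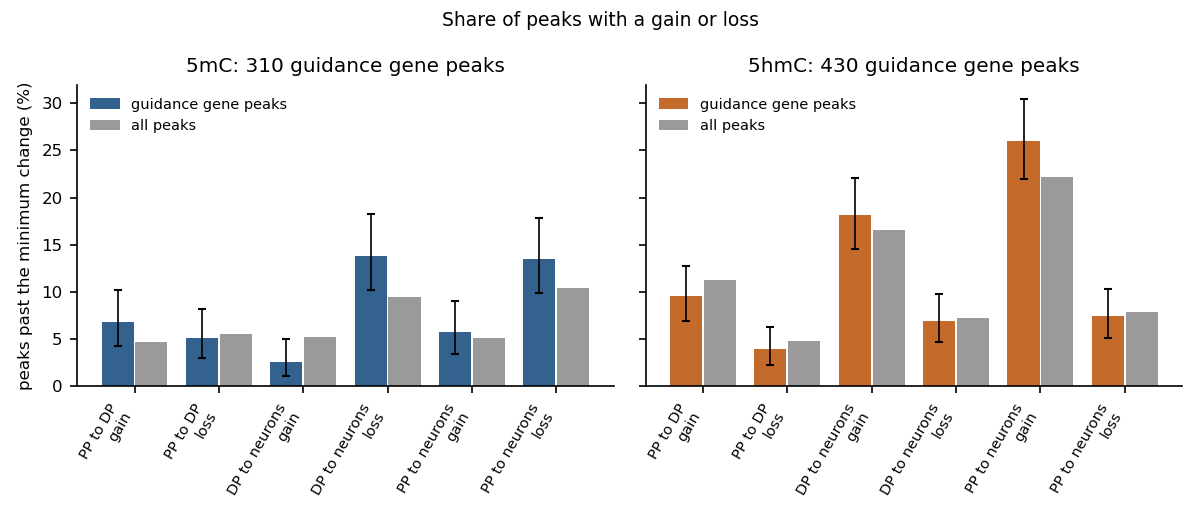
Percent of 5mC peaks (left) and 5hmC peaks (right) with a gain or loss of at least 0.58 (log2, centred) in each step; coloured bars are the guidance gene peaks with their exact 95% interval (counting error only), grey bars all peaks of the mark. The 5mC losses from DP to neurons (13.9% against 9.48%) stand above their grey bar, and the 5hmC gains from PP to neurons (26.0% against 22.2%) are the tallest bars.

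The 5hmC gains lay mostly within the genes. Inside a guidance gene 72 of 190 5hmC peaks (37.9%) had a gain from PP to neurons, against 26.8% of all peaks inside genes, and outside 40 of 240 (16.7%), against 19.6% of all peaks outside. Position is as annotated, so the 21 5hmC and 13 5mC peaks annotated upstream but within RefSeq bounds count as outside. Epha4, Ephb2, Robo1 and Efna5 together held 38 of the 112 gains (33.9%). Without these 4 genes the shares were 32.6% inside (46 of 141) and 13.4% outside (28 of 209). Peaks with a 5mC loss differed less by position, with 27 of 169 inside (16.0%), against 10.7% of all, and 15 of 141 outside (10.6%), against 10.1% of all. Efna5, Efnb2, Ephb2 and Ntn4 held 17 of the 42 losses (40.5%). Without these 4 genes the loss was at 15 of 145 peaks inside (10.3%) and 10 of 108 outside (9.26%). For both marks the 4 genes were left out for their number of called peaks, which by itself tends to lower a share. No such genes were left out of all peaks, so the trimmed shares cannot be set against those of all peaks.

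By role, 52 of 212 5hmC peaks at ligands (24.5%) and 59 of 215 at receptors (27.4%) had a gain from PP to neurons, against 22.2% of all. From PP to DP the gain was at 15 ligand peaks (7.08%) and 26 receptor peaks (12.1%), against 11.3% of all. For 5mC the loss was from PP to neurons at 24 of 148 peaks at ligands (16.2%) and at 17 of 154 at receptors (11.0%), against 10.4% of all. The differences between the roles were not tested. The families ran from 20.2% of 109 5hmC peaks with a gain at the semaphorins to 50% of only 8 at the netrins.

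Among the Eph receptors 26 of 98 5hmC peaks (26.5%) had a gain from PP to neurons, near the 22.2% of all, and 25 of them lay at Epha4, Ephb2 and Ephb3. Epha4, a receptor of both ephrin classes that repels axons of several tracts, lies on chr1, and 12 of its 15 5hmC peaks had a gain, 10 inside the gene and 2 upstream of it. Over these 12 peaks the median level was 3.95, 4.24 and 4.82 in PP, DP and neurons, and the changes from PP to neurons ran from 0.64 to 1.78. The peak with the highest change, chr1:77391557-77391658, had levels of 2.87, 2.37 and 4.57, lowest in DP. The 3 Epha4 peaks without a gain were 2 downstream of the gene and 1 inside it.

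Ephb2, a receptor for B ephrins that acts in commissural pathfinding and at synapses, had a gain at 9 of 18 5hmC peaks, 8 of them inside the gene. The largest was at chr4:136833099-136833210, 2.83 kb inside the gene, where the level was 2.25, 1.86 and 5.29 in PP, DP and neurons. The peak at chr4:136771507-136771628 had 3.27, 4.05 and 5.62, and the one at chr4:136770807-136771035 had 3.01, 2.95 and 4.89. All 3 were picked among the gains, which by itself puts neurons above PP, and at all 3 the level in DP was also below that in neurons. Other Ephb2 peaks were flat at a high level, such as 7.75, 7.60 and 7.73 at chr4:136822765-136822949. A single Ephb2 peak had a 5hmC loss, at 4.29, 3.77 and 3.13.

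Ephb3, another receptor for B ephrins, had a gain at 4 of 8 5hmC peaks, with changes from 0.59 to 1.11. Epha5, a receptor of A ephrins, had 24 5hmC peaks and no gain from PP to neurons, with changes between -0.77 and 0.42 and 2 losses. Of its peaks 23 lay upstream of the gene, as far as 682 kb from the start. Epha3, Epha6 and Epha7, with 7, 5 and 2 5hmC peaks, had no gain and 1 loss each, and Epha8 had 1 gain in 5 peaks.

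**Figure D2:**
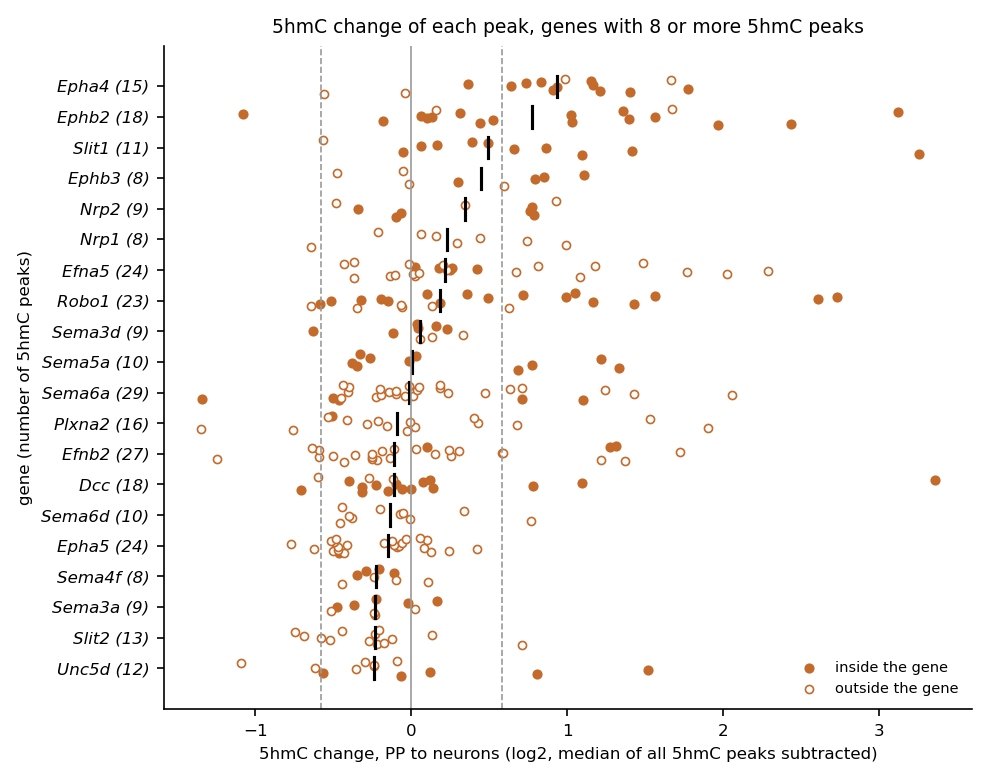
Change of the 5hmC level from PP to neurons (log2, median of all 5hmC peaks subtracted) of each peak of the genes with 8 or more 5hmC peaks; filled points are annotated inside the gene, open points outside, the black bar is the gene's median and the dashed lines mark 0.58 either way. Epha4 has 12 of 15 points to the right of the upper line, while none of the 24 points of Epha5 reaches it.

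The ephrins had a 5hmC gain from PP to neurons at 17 of 66 peaks (25.8%), near the 22.2% of all, and a 5mC loss at 11 of 56 (19.6%), against 10.4% of all, with 10 of the 11 at Efna5 and Efnb2. Efna5, a GPI-anchored ligand that patterns topographic maps, had a gain at 8 of 24 5hmC peaks and a loss at 6 of 22 5mC peaks. At chr17:62656314-62656421 5hmC was 3.11, 4.00 and 5.32 in PP, DP and neurons. This peak was annotated 49.7 kb upstream of the start but lies within the bounds RefSeq gives the gene. Its 5mC losses included a peak 6.48 kb inside the gene with 4.64, 4.67 and 3.49, where the lower level appeared in neurons only. The tables carry Efna5 under 2 gene models, with 26 and 20 peaks, so its positions depend on the model to which the authors assigned a peak.

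Efnb2, a transmembrane ligand, had a gain at 6 and a loss at 4 of 27 5hmC peaks, and a loss at 4 of 18 5mC peaks. Within the gene 2 of its 3 5hmC peaks had a gain, and all 4 5hmC losses lay downstream. The steepest was at chr8:8326018-8326196, 335 kb from the start, with 5.22, 5.53 and 3.89 in PP, DP and neurons. The 5mC peak at chr8:8621236-8621379 had 4.11, 4.39 and 0.94, the lowest level of any 5mC peak of these genes. Efnb1, a transmembrane ligand encoded on the X chromosome, had no 5hmC gain in 7 peaks.

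The slits had a 5hmC gain at 9 of 29 peaks (31.0%) and the Robo receptors at 10 of 32 (31.2%), against 22.2% of all, and 9 of the 10 lay at Robo1. Slit1 had a gain at 5 of 11 5hmC peaks, all inside the gene. At chr19:41689615-41689787 the level was 1.65, 4.44 and 4.83 in PP, DP and neurons, and at chr19:41704538-41704685 it was 3.76, 4.98 and 5.09. Both were low in PP alone. The Slit1 peak nearest to the start site, annotated 0.101 kb upstream, ran the other way, with 5.71, 5.74 and 5.06, a change short of the limit. Slit3 had a gain at 3 of 5 5hmC peaks and also a 5mC gain at 2 of 5 peaks, 1 of them at 4.55, 4.45 and 5.29. Slit2 had 1 gain and 2 losses in 13 5hmC peaks.

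Robo1, a receptor of slits, had the most 5mC peaks of these genes, 27, and 23 5hmC peaks. A 5hmC gain was seen at 9 of them, 8 inside the gene, and a 5mC loss at 3. At chr16:72978599-72978734 5hmC was 2.77, 4.16 and 5.41 in PP, DP and neurons, and at chr16:72923552-72923697 it was 1.84, 4.80 and 4.37. The first climbed in both steps and the second was at its highest in DP. The 5mC peak that overlaps the first had 7.64, 7.64 and 7.11, a change short of the limit. Robo2 had no 5hmC gain in 6 peaks, and a 5mC loss at 1 of 2, with 5.30, 5.62 and 4.45.

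Among the netrins 4 of 8 5hmC peaks (50%) had a gain and 5 of 18 5mC peaks (27.8%) a loss, against 22.2% and 10.4% of all, at Ntn4 and Ntng2. Ntng2 encodes a GPI-anchored netrin that does not bind Dcc. Its 5hmC peak at chr2:29207349-29207458, inside the gene, had 1.66, 2.73 and 4.77 in PP, DP and neurons, while 5mC at the overlapping peak was 5.39, 5.19 and 4.91. Ntn1, the secreted netrin that attracts commissural axons, had 1 5hmC peak without a gain.

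The netrin receptors had a 5hmC gain at 9 of 37 peaks (24.3%) and a 5mC loss at 3 of 24 (12.5%), both near the shares of all peaks (22.2% and 10.4%). Unc5a had a gain at 3 of 5 5hmC peaks and a loss at 2 of 4 5mC peaks. Dcc had a gain at 3 of 18 5hmC peaks and neither a gain nor a loss at its 5 5mC peaks. Among the 3 was the largest 5hmC change of all 430 peaks, 3.36 from PP to neurons, 16.3 kb inside the gene. Its level was 1.54, 4.40 and 4.82 in PP, DP and neurons, so the peak was low in PP alone. Only 3.88% of all 5hmC peaks had a lower mean level, so the size of this change rests on a low value in PP. Unc5d had 2 gains and 2 losses in 12 5hmC peaks.

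Semaphorins had a 5hmC gain at 22 of 109 peaks (20.2%) and a 5mC loss at 5 of 58 (8.62%), both near and below the shares of all peaks (22.2% and 10.4%). Sema6a, a transmembrane semaphorin, had the most 5hmC peaks of the genes, 29, with 7 gains and 1 loss. Sema5a, a transmembrane semaphorin, had 4 gains in 10 5hmC peaks, and all 10 lay inside the gene. A peak 6.74 kb upstream of Sema4d had 3.35, 3.53 and 5.58 in PP, DP and neurons, and a peak downstream of Sema7a, 27.6 kb from its start, had 3.88, 4.60 and 5.89. Sema3a, a secreted repellent, and Sema4f had no 5hmC gain in 9 and 8 peaks.

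The plexins had a 5hmC gain at 8 of 31 peaks (25.8%) and the neuropilins at 6 of 17 (35.3%), against 22.2% of all. Plxna2, a receptor of transmembrane semaphorins, had 3 gains and 2 losses in 16 5hmC peaks, 15 of which lay upstream. Plxnd1, the receptor of Sema3e, had a gain at both 5hmC peaks inside the gene, one with 3.13, 4.42 and 4.74 in PP, DP and neurons, in contrast to the peak on its promoter window. Nrp2 had a gain at 4 of 9 5hmC peaks, with changes from 0.76 to 0.93, and Nrp1 at 2 of 8.

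Both marks could be read at the same place where peaks overlapped, which was the case for 46 pairs at 22 genes, with a median overlap of 118 bp. Over the 46 pairs the 5mC loss and the 5hmC gain from PP to neurons met at 11 pairs (23.9%), in 8 genes, against 19.0% of 6727 pairs in the tables. From DP to neurons they met at 9 pairs (19.6%), against 12.7% of all pairs, and from PP to DP at 0, against 3.24% of all pairs. The converse, a 5mC gain with a 5hmC loss, was seen at none of the 46 pairs in any step, and at 16 of all pairs from PP to neurons. A 5hmC gain was more frequent in the pairs than in the 430 peaks, at 28 of 46 (60.9%), against 43.1% of all pairs, and 12 of 46 (26.1%) had a 5mC loss, against 24.4%.

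**Figure D3:**
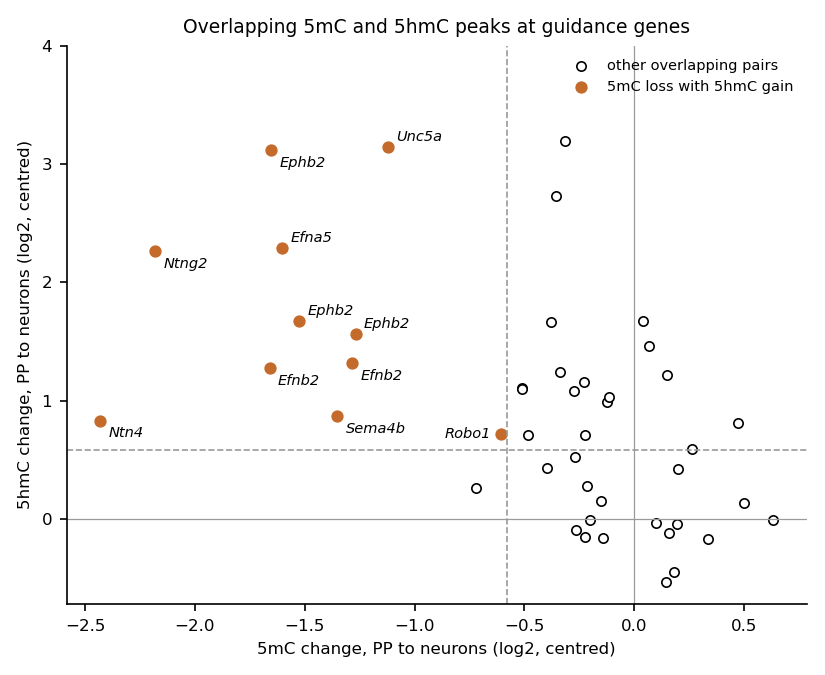
Change of 5mC (horizontal) against change of 5hmC (vertical) from PP to neurons at the 46 overlapping pairs (log2, centred); dashed lines mark the limits and filled points the 11 pairs past both, with their gene. Unc5a and an Ephb2 pair combine a 5mC loss with 5hmC changes above 3, from low 5hmC levels in PP (1.20 and 2.25). Ntn4 has the largest 5mC loss, -2.43.

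Ephb2 held 3 of the 11 pairs, Efnb2 2, and Efna5, Ntn4, Ntng2, Robo1, Sema4b and Unc5a 1 each. At Unc5a, 18.1 kb inside the gene (chr13:54967429-54967548 for 5mC), 5mC was 5.18, 4.64 and 3.89 in PP, DP and neurons, and 5hmC was 1.20, 3.28 and 4.26. Neither step alone reached the limit for 5mC there. At Ntng2, 63.4 kb downstream of the start (chr2:29189495-29189684), 5mC was 6.94, 6.65 and 4.59, and 5hmC was 4.22, 5.09 and 6.40. Here 5hmC was higher in DP than in PP while 5mC differed mainly in neurons.

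At the Ephb2 pair 2.85 kb inside the gene 5mC was 4.27, 3.98 and 2.45, beside the 5hmC level of 2.25, 1.86 and 5.29 given above. The upstream Ephb2 pair (chr4:136855552-136855709) had 5mC of 6.19, 6.11 and 4.49 and 5hmC of 3.70, 4.58 and 5.30. At Ntn4, a laminin-binding netrin, 2.79 kb inside the gene (chr10:93643401-93643542), 5mC was 5.03, 4.97 and 2.42 and 5hmC 5.15, 5.49 and 5.90. At all 3 pairs 5mC differed less between PP and DP than between DP and neurons.

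At Efnb2 the pair 39.9 kb inside the gene had 5mC of 4.95, 5.30 and 3.12 and 5hmC of 5.32, 5.58 and 6.51. At Sema4b, a transmembrane semaphorin, 5mC was 3.94, 4.32 and 2.42 and 5hmC 5.39, 5.39 and 6.17. At Robo1 the pair lay 334 kb inside the gene, with 5mC of 5.93, 5.53 and 5.16 and 5hmC of 5.56, 5.68 and 6.20, just past both limits. The other 17 pairs with a 5hmC gain had no 5mC loss. Sema6a gave 4 of these, with 5mC changes between -0.51 and -0.22, and Epha8 gave 1 where 5mC was 6.46, 6.50 and 6.33 while 5hmC was 3.46, 4.11 and 5.05.

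**Figure D4:**
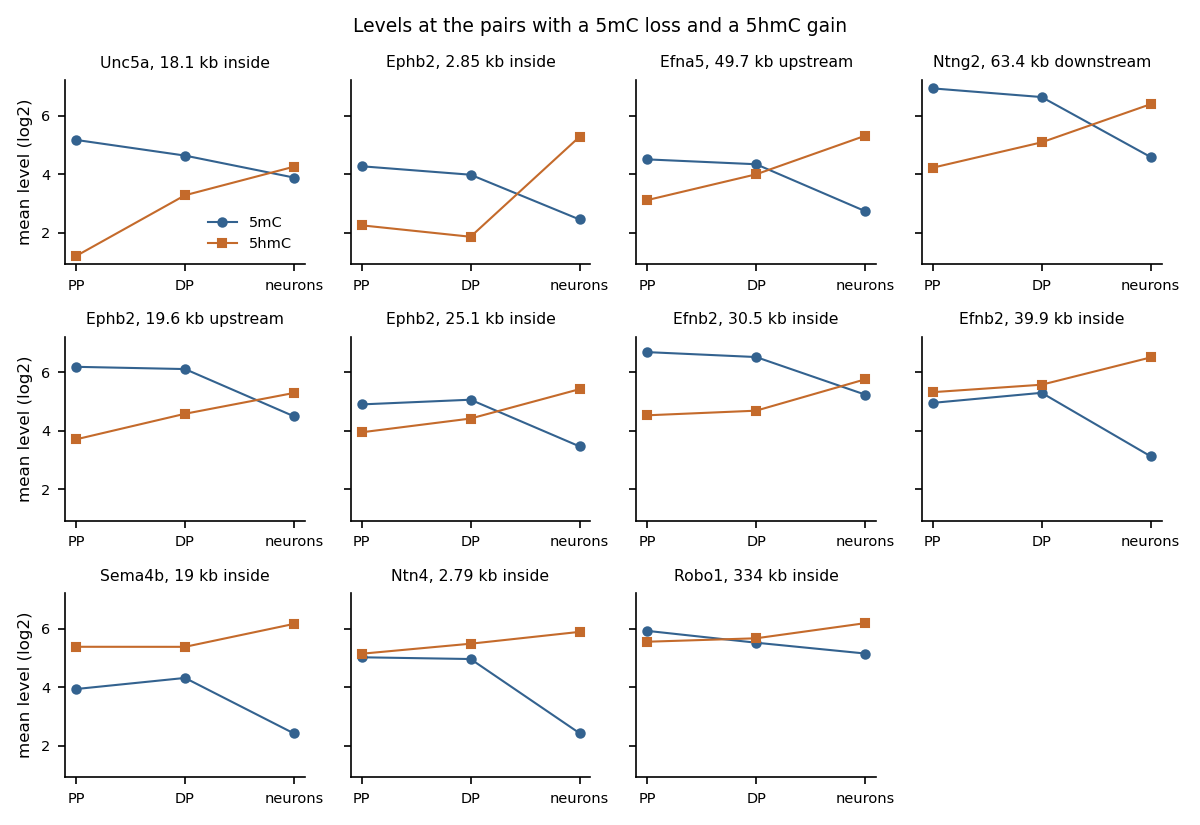
Mean level (log2) of 5mC (circles) and 5hmC (squares) in PP, DP and neurons at the 11 pairs, with the gene and the distance from the 5mC peak to the start site. Each point is 1 mean over replicates, without an error. The pairs were chosen by their changes from PP to neurons, so the order of PP and neurons is set by the choice. Only the level in DP was free. 5mC stays near its PP level in DP at most pairs, and at all 11 the DP level is above that of neurons for 5mC and below it for 5hmC. Positions are as annotated, and the Efna5 pair, annotated upstream, lies within the bounds RefSeq gives the gene.

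The 18 5mC gains from PP to neurons were spread over 17 genes, with Slit3 alone holding 2. At Plxnd1 a peak 16.5 kb inside the gene had 5mC of 3.75, 4.84 and 4.71 in PP, DP and neurons, and at Robo1 a peak 97.8 kb inside the gene had 4.54, 5.00 and 5.30. Their median level was 3.92, 4.53 and 4.68 in PP, DP and neurons. The 32 5hmC losses lay in 22 genes, with a median level of 4.84, 4.42 and 3.95.

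The same tables give an expression value of each gene per cell type, taken by the authors from their earlier RNA-seq of these populations, in a unit not named in the tables. From PP to neurons 38 of 66 genes (57.6%) had a value at least 1.5-fold higher, on the log2(value + 1) scale, against 30.0% of 16293 genes, and 18 (27.3%) were lower, against 31.4%. From PP to DP 30 were higher and 14 lower, against 13.9% and 17.1% of all genes. From DP to neurons 36 were higher and 18 lower, against 26.4% and 26.3%. The median difference of the 66 genes was 0.33 from PP to DP, 0.72 from DP to neurons and 1.33 from PP to neurons, against -0.019, 0.0052 and -0.0087 over all genes. The exact interval of the 38 genes was 44.8 to 69.7%.

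Of 32 receptors 21 were higher in neurons than in PP and 7 lower, and of 33 ligands 17 were higher and 11 lower, beside 30.0% and 31.4% of all genes. The difference between the roles was not tested. All 5 netrin receptors and both neuropilins were higher in each step. Dcc had a value of 778, 8724 and 18177 in PP, DP and neurons, Unc5d 460, 4155 and 6853, and Nrp1 723, 7509 and 13656. These genes stood well above PP already in DP. Robo1 was 987, 1724 and 18508 and Plxnd1 485, 419 and 11157, both far higher in neurons than in PP or DP. Plxna4, a plexin of the secreted semaphorins, had 914, 12997 and 50577.

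Among ligands, Sema6b had 62.2, 157 and 3935 in PP, DP and neurons, and Efna3 63.9, 306 and 2959. Ntng2 had 403, 4605 and 14149. The other netrins went the other way, with 3171, 1376 and 215 for Ntn4, 886, 750 and 95.6 for Ntn1 and 171, 41.2 and 38.6 for Ntng1. Sema5a was 32574, 18142 and 2108 and Efnb1 30493, 18332 and 8236, both highest in PP. Sema3g was highest in DP, with 66.5, 455 and 12.2. Of the receptors, Ephb4 (3555, 2301 and 267) and Epha2 (215, 60.2 and 2.80) were highest in PP. Robo4 (27.9, 7.40 and 3.20), known from endothelium, was highest in PP, as were 4 of the 5 endothelial markers.

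**Figure D5:**
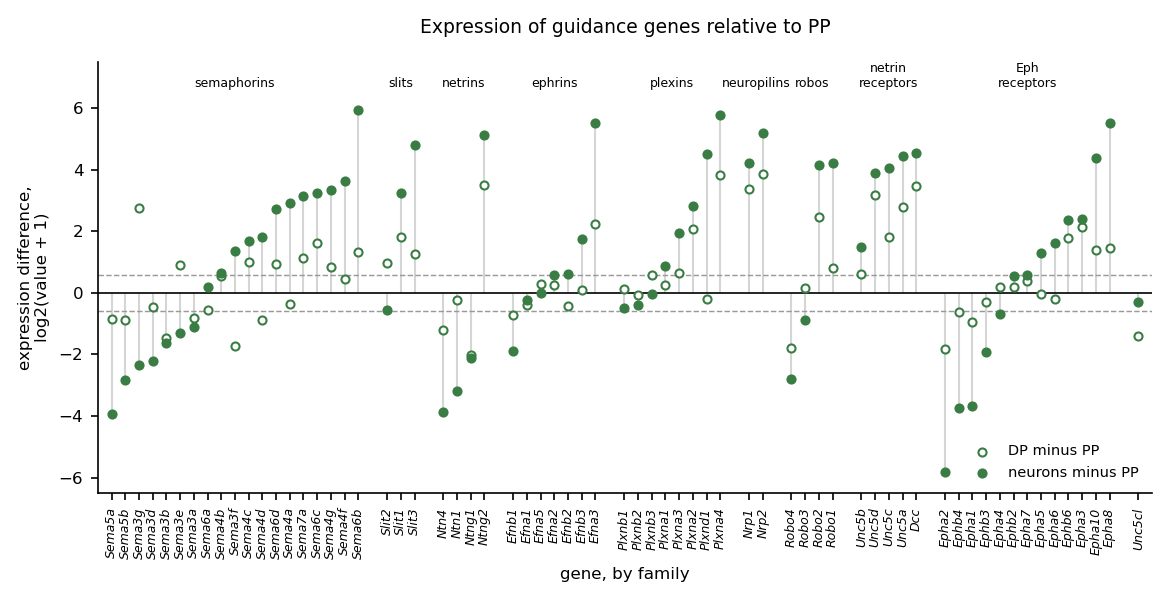
Difference in expression from PP, as log2(value + 1), for DP (open points) and neurons (filled points) of the 66 guidance genes, grouped by family and ordered within it by the neuronal difference; dashed lines mark 0.58 either way. Both neuropilins and all 5 netrin receptors lie above the upper line in DP and neurons, while 3 of 4 netrins lie below the lower line in neurons.

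The expression difference of a gene and the change of its marks were set side by side across genes. Spearman's rho between the median mark change of a gene and its expression difference from PP to neurons was 0.085 over 59 genes for 5hmC and -0.0048 over 62 genes for 5mC. From DP to neurons it was -0.066 and -0.21, and over the 42 genes with at least 3 peaks of the mark -0.22 for 5hmC and -0.27 for 5mC. From PP to DP it was 0.018 for 5hmC and 0.10 for 5mC. These values are given as a description over genes that share the same populations. The 5hmC gain was at 48 of 209 peaks (23.0%) of the 31 genes at least 2-fold higher in neurons, at 12 of 71 (16.9%) of the 13 genes at least 2-fold lower, and at 52 of 150 (34.7%) of the 15 genes between. Epha4, with 12 gains in 15 peaks, had 25477, 29380 and 15875 in PP, DP and neurons. Epha5, without a gain, had 8997, 8751 and 22022. Efna5 had 359, 436 and 355 under one gene model and 215, 263 and 221 under the other, flat beside its 8 gains. Of the other genes with gains, some were higher in neurons than in PP and some lower. Robo1, with 9 gains in 23 peaks, had 987, 1724 and 18508, and Slit1, with 5 gains in 11 peaks, had 1250, 4424 and 11833. Lower in neurons were Ephb3, with 4 gains in 8 peaks and values of 1913.3, 1572.5 and 499.2, and Sema5a, with 4 gains in 10 peaks and 32574, 18142 and 2108. Such single genes do not show how gains and expression relate over the 66 genes.

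For the rest of the pathway, 63 other guidance genes were described by the same counts: 15 co-receptors, other cues and adhesion molecules and 48 adaptors and effectors. The list was made with earlier results of these data known. Of their 340 5hmC peaks 121 (35.6%) had a gain from PP to neurons, against 22.2% of all, with 34 of 104 (32.7%) at the first group and 87 of 236 (36.9%) at the second. Of their 330 5mC peaks 49 (14.8%) had a loss, against 10.4%, with 16 of 77 (20.8%) and 33 of 253 (13.0%). In expression, 40 of the 58 with a value were higher in neurons than in PP and 7 lower, by a median difference of 1.11. The 5hmC gains were thus a larger share of peaks at these genes than at the ligands and receptors, where they made up 26.0%, and the difference was not tested.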

How the data were processed

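MeDIP and hMeDIP libraries of PP, DP and neurons were sequenced by the authors, who per the labels and methods used BWA 0.7.8-r455 on mm10, SICER 1.1 for peaks, HOMER 4.7 for the nearest gene and DiffBind for levels. The 2 deposited tables, 1 per mark, hold log2 mean levels of each cell type over biological replicates, as the authors normalized them. They also hold an expression score per gene and cell type in a unit not named in the tables, from RNA-seq the authors had made earlier. Columns with the authors' own fold changes and p-values, for both marks and for expression, were not used. Counts per replicate and input were not used here, so depth behind each level is unknown, and no test was run. Whether peak starts count from 0 or 1 is not given in the sources used here, so coordinates are as deposited.

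Changes were differences of levels, centred on the median of all peaks of the mark, and called at 0.58 (log2). Expression differences used a pseudocount of 1, and 1 value set per symbol, the first listed. Peaks of both marks were paired where they overlapped by at least 1 bp. Work was done in python 3.11.15 with pandas 2.3.3, numpy 2.4.6 and scipy 1.17.1, with counting tested on simulated data. Genes and lists were chosen with earlier results of these data known. Named were genes with 8 or more peaks, the 3 largest changes per mark, step and direction among peaks at or above the lower quartile of mean level, the pairs past both limits, genes with a 2-fold expression difference and a list of cortical guidance genes. Any other peak or gene given was picked after its values were seen. Sequence of the peaks was planned but not analysed here, and RefSeq promoter windows were used in its place. Alternatives were other limits, no centring, a level filter, a distance limit, each gene once, a stricter overlap and, for expression, a minimum value.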

Additional observations from a re-analysis of the deposited data

How the results depend on the processing

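Of 78 values under an alternative, 51 moved by less than the exact interval and 27 moved further. Shares below are of guidance gene peaks, with the share of all peaks in brackets, for 5mC losses and 5hmC gains. With a 2-fold limit the 5mC losses were 0.968% (0.960%) from PP to DP, 5.16% (3.30%) from DP to neurons and 6.45% (4.00%) from PP to neurons, and the 5hmC gains 2.79% (5.07%), 7.67% (8.03%) and 15.6% (14.2%). With a limit of 0.32 (log2) they were 14.8% (16.5%), 23.9% (20.2%) and 26.8% (21.3%) for 5mC and 20.2% (21.7%), 31.4% (27.0%) and 34.2% (31.1%) for 5hmC. Among peaks with a mean level at or above the median they were 0% (1.27%), 4.90% (3.40%) and 7.69% (4.07%) for 5mC and 2.68% (4.62%), 10.3% (7.90%) and 16.1% (13.2%) for 5hmC. With each gene counted once, 5mC gave 1.61% (2.10%), 4.84% (3.25%) and 6.45% (4.12%), and 5hmC 3.39% (5.15%), 11.9% (8.93%) and 22.0% (14.6%). Without centring the 5mC losses were 19.4% (15.8%) from DP to neurons and 20.3% (16.6%) from PP to neurons. Among peaks inside genes or within 100 kb the 5hmC gains were 23.2% (17.4%) from DP to neurons and 32.2% (23.3%) from PP to neurons. The 5hmC gains from DP to neurons lay above the share of all peaks at 1.5-fold and below it at 2-fold. Leaving out the gene with the most such peaks, chosen after seeing the data, gave 12.5% for the 5mC losses (without Efna5) and 24.1% for the 5hmC gains (without Epha4) from PP to neurons. The 11 of 46 pairs (19.0% of all pairs) became 10 of 41 (20.2%) with 50% of the shorter peak shared, 8 of 46 (9.22%) at 2-fold and 14 of 46 (22.6%) without centring.

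Leaving out a replicate was not possible with 1 mean per cell type. No paired analysis was possible because the tables hold no replicate values. The depth behind a level is unknown, so low levels, such as those near 1 to 2 in PP, carry an unknown error.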
